A study of Mus musculus with 3 samples.

Results

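The aminoacyl-tRNA synthetases of the cytosol and the genes of the amino acid response were examined in poly(A) RNA of N1E-115 cells, a mouse neuroblastoma line. The set held 35 of the 24384 named genes of the count table, found by gene symbol: 20 synthetase genes, and Atf4 with 14 genes of amino acid synthesis, transport and stress. All 35 were present in the table. The study has 1 group of 3 libraries, replicates 1, 2 and 3, made from cells of the stated wild-type genotype that received no treatment and were taken at day 0. No other condition was analysed here, so the data give the level of each gene and its spread between replicates, with no contrast of conditions. The labels do not say whether the libraries came from separate cultures, so the spread, and every p-value that rests on it, may be technical.

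Aminoacyl-tRNA synthetases attach each amino acid to its tRNA before translation. A separate set of nuclear genes serves the mitochondria for most amino acids, although Gars and Kars provide the enzyme of both compartments. When amino acids run short, uncharged tRNA activates the kinase GCN2, which phosphorylates the initiation factor eIF2. General translation then falls while the transcription factor ATF4 is translated more. ATF4 binds composite C/EBP-ATF elements and raises genes of amino acid uptake and synthesis, many synthetase genes, and stress effectors such as Ddit3 and Trib3. Much of this control acts on the translation of Atf4, so its mRNA level is no measure of its protein.

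The element that ATF4 binds has a core that can be searched for as TGATGNAA on both strands, and RefSeq promoter sequences (GRCm38.p6, 250 bases before to 50 after the start of the gene) were available for 27 of the 35 members. The core was found in 9 of these 27 (33.3%), against 1219 of 27025 genes with such a sequence (4.51%) and 238 of the 8838 genes that were also detected in these cells (2.69%). It was found in 5 of 13 synthetase genes and 4 of 14 response genes, and in 0 of 14 mitochondrial synthetase genes. With matches that end before the RefSeq start alone, the shares were 6 of 27 members (22.2%), 3.91% of all genes and 2.41% of the detected genes. These are matches of letters and show no binding. Elements are given in 30 bases each, 5′ to 3′ along the strand of the gene, with the match in capitals, to show the bases around the core in members that held it.
Aars: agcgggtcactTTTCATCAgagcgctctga
Gars: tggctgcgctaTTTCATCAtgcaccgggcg
Iars: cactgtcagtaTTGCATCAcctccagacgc
Tars: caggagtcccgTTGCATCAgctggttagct
Yars: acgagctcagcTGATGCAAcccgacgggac
Asns: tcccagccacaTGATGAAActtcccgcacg
Slc7a11, first match: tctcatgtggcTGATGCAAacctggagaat
Slc7a11, second match: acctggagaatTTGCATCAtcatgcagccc
Trib3: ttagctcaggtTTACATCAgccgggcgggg
Chac1: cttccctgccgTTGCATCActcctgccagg

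Most matches lay within 120 bases of the start. In Asns, which makes asparagine, the match began at base -23 (chromosome 6, 7693225 to 7693232, minus strand), and in Gars at -30 (chromosome 6, 55037971 to 55037978). Those of Slc7a11 (chromosome 3, minus strand) began at -66 and -47, in opposite orientation. That of Tars began at -15. The matches shown for Iars, Yars, Trib3 and Aars lay just after the RefSeq start, at 8, 4, 15 and 10. Gene spans given elsewhere follow GENCODE, whose starts can differ. The Trib3 match (chromosome 2, 152344039 to 152344046, minus strand) lies before the GENCODE start of that gene (152344032). Chac1 had the most distant match, at -193. Of the 9 genes, 6 held the core on the opposite strand alone. The 250 bases before the start are given for the cystine transporter gene Slc7a11, to show where both of its matches lie.
Slc7a11, chr3:50443614-50443863, minus strand: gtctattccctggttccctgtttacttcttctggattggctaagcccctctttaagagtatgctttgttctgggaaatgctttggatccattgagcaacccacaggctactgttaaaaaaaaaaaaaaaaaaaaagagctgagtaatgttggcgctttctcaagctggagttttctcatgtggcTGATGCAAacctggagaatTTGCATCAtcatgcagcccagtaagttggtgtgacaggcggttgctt

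Counts over all named genes came to 17731376 in replicate 1, 13942014 in replicate 2 and 15432235 in replicate 3. Levels are given in CPM, the count scaled to that total, and 1 count was worth 0.0564, 0.0717 and 0.0648 CPM in replicates 1, 2 and 3. Genes are compared with each other as CPM per kilobase of merged exon (CPM per kb), with mean ± SD over n = 3 libraries. A gene is called detected with at least 1 CPM in every library. The labelled neuroblast identity fits the markers listed for it: 12 of 12 were detected, and their summed level was 5970 to 6500 CPM per library. Markers of glia, endothelium and fibroblasts were detected in 2 of 5, 1 of 3 and 2 of 4 cases, with sums between 4.6 and 8.18 CPM. Immune markers were detected in 0 of 4 cases, with sums of 0.389 to 0.789 CPM, and Kdr, Ptprc and Csf1r had no counts.

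All 35 members were detected, against 47.3% of named genes. At least 100 CPM in every library was reached by 28 of them (18 synthetases and 10 response genes), against 9.23% of named and 19.5% of detected genes. Together they took 1.03% of the counts in replicate 1 (95% exact Clopper-Pearson interval 1.021 to 1.031%), 1.04% in replicate 2 (1.036 to 1.047%) and 0.986% in replicate 3 (0.981 to 0.991%). Such intervals cover counting error only. The synthetases alone took 0.613, 0.624 and 0.614% of counts, and the response genes 0.413, 0.418 and 0.372%, in replicates 1, 2 and 3. The synthetase share was thus nearly level between libraries (0.617 ± 0.00576%), while the response share was lower in replicate 3 than in both others (mean 0.401 ± 0.0253%).

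The median level of the synthetase genes was 52.1 ± 2.68 CPM per kb and that of the response genes 71.3 ± 4.99, against 7.87 ± 0.20 for all detected genes. Of the 20 synthetases 13 stood above the 90th percentile of detected genes on this scale, as did 8 of the 15 response genes. The level per kb depends on the gene model. With the longest annotated transcript in place of the merged exons the medians were 81.8 ± 0.87 and 109 ± 10.7 CPM per kb for the synthetases and the response genes, and 10.6 ± 0.20 for all detected genes.

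**Figure D1:**
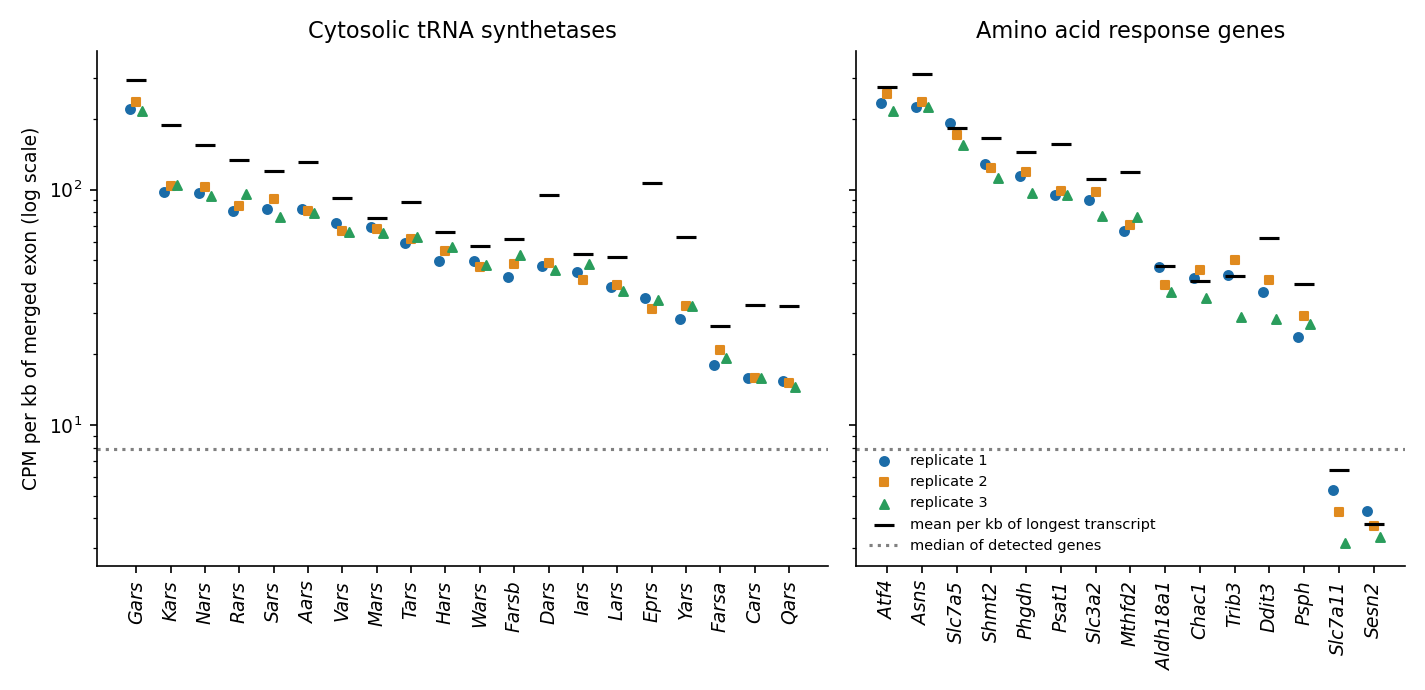
Level of each member in CPM per kb of merged exon (log axis) in replicates 1 to 3, ordered by mean, for the 20 cytosolic synthetases on the left and the 15 amino acid response genes on the right. Black bars give the mean per kb of the longest transcript, and the dotted line is the median of detected genes (7.87). Only Slc7a11 and Sesn2 lie below that line, while Gars, Atf4 and Asns lie above 200.

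Gars, the glycyl-tRNA synthetase gene (chromosome 6, 55038007 to 55079500, mm10), led the synthetases. It stood at 221, 236 and 216 CPM per kb in replicates 1, 2 and 3. Its mean of 224 ± 10.2 was 2.19-fold that of Kars, or 1.56-fold per kb of the longest transcript. Kars, the lysyl enzyme, was the next in order, and Gars was higher in 3 of 3 libraries. Kars followed at 97.7, 104.1 and 104.5 CPM per kb, and Nars, the asparaginyl enzyme, at 96.4, 102 and 93.7. Gars and Kars are the genes that also serve the mitochondria, and they were the first and second of the synthetases with either gene length. Rars, the arginyl enzyme, stood at 81.1, 85.2 and 95.8 CPM per kb, and Sars, the seryl enzyme, at 83.0, 91.3 and 76.9. The levels of Rars, Sars and Aars (mean 81.4 ± 1.74) did not differ beyond their spread.

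At the low end stood Qars, the glutaminyl enzyme, with 15.4, 15.1 and 14.4 CPM per kb. Cars, the cysteinyl enzyme, had 15.8 CPM per kb in each library. The mean of Gars was 15-fold that of Qars, or 9.16-fold per kb of the longest transcript. Farsa, which encodes the catalytic subunit of the phenylalanyl enzyme, stood at 17.98, 20.8 and 19.19 CPM per kb, and Yars, the tyrosyl enzyme, at 28.3, 31.9 and 31.9. Eprs, a fused enzyme for glutamate and proline, was the fifth from the bottom (34.6, 31.2 and 33.8 CPM per kb). The places of Eprs, Yars and Dars rest on the gene model. Eprs has 18102 nt of merged exon but a longest transcript of 5638 nt, and per kb of that transcript it stood at 107 ± 5.69 CPM per kb, the seventh of 20. Per kb of the longest transcript Farsa was the lowest synthetase at 26.3 ± 1.92, below Qars (32.1 ± 1.04) and Cars (32.3 ± 0.046). The other 10 synthetases, from Aars to Lars, lay between 38.4 and 81.4 CPM per kb of merged exon.

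Of the 19 pairs of neighbours in the order of the synthetases, 13 differed by more than the larger of both SDs, and 10 kept the same order in 3 of 3 libraries. Vars and Mars did not differ beyond their spread (68.1 ± 3.46 and 67.8 ± 1.82 CPM per kb), nor did Wars, Farsb, Dars and Iars, neighbour by neighbour (44.9 to 48.2).

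The phenylalanyl enzyme is a complex of 2 kinds of subunit, and the genes of the subunits were not at the same level. Farsa had 81.6, 94.4 and 87.1 CPM in replicates 1, 2 and 3, and Farsb had 112, 126 and 138 CPM. Farsa was the lower in 3 of 3 libraries per kb. The log2 ratio per kb of Farsa to Farsb was -1.25, -1.21 and -1.46, a mean of -1.31 ± 0.13, or 2.47-fold more Farsb. It was -1.23 ± 0.13 per kb of the longest transcript. Farsb shares 248 nt of exon with Sgpp2 on the opposite strand, a gene with 55, 36 and 31 counts, against 1983, 1757 and 2134 counts for Farsb.

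In animal cells 8 of these enzyme genes encode members of the multisynthetase complex (Dars, Eprs, Iars, Kars, Lars, Mars, Qars and Rars). Their median was 46.2 ± 0.93 CPM per kb, and that of the other 12 synthetases was 57.6 ± 2.86. On the scale of the longest transcript the order was the other way round, at 85.3 ± 2.53 and 77.1 ± 3.39. Of the genes of its scaffold proteins, Aimp2 was at 45.1 ± 6.54, Aimp1 at 22.4 ± 1.58 and Eef1e1 at 18.5 ± 2.02 CPM per kb. By fold of the catalytic domain, the 10 class II genes had a median of 71.0 ± 0.94 CPM per kb and the 9 class I genes of 44.8 ± 3.27; Eprs, whose parts belong to both classes, was left out. The same order held per kb of the longest transcript (108 ± 6.86 and 57.3 ± 0.88). These groups were formed with the levels known and carry no test.

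For 14 amino acids the cytosolic and the mitochondrial enzyme have a gene each. The cytosolic gene was higher per kb of merged exon in 3 of 3 libraries for 14 of 14, with a median of 8.66-fold. Mitochondrial synthetases were all detected (17 of 17), with a median of 4.89 ± 0.32 CPM per kb, below that of all detected genes. The gap was widest for tryptophan, where Wars exceeded Wars2 73.4-fold (log2 6.16, 6.25 and 6.17), and for methionine, where Mars exceeded Mars2 63.0-fold (log2 5.96, 5.99 and 5.98). It was narrowest for leucine, where Lars exceeded Lars2 1.57-fold (log2 0.53, 0.56 and 0.85), and turned to 0.742-fold per kb of the longest transcript. Lars2 was the highest of the mitochondrial genes, with 297, 294 and 229 CPM (24.7 ± 3.50 CPM per kb), followed by Yars2 (12.2 ± 1.12) and Rars2 (10.7 ± 0.32). The lowest were Pars2 (1.65 ± 0.23), Mars2 (1.08 ± 0.032) and Wars2 (0.658 ± 0.039).

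**Figure D2:**
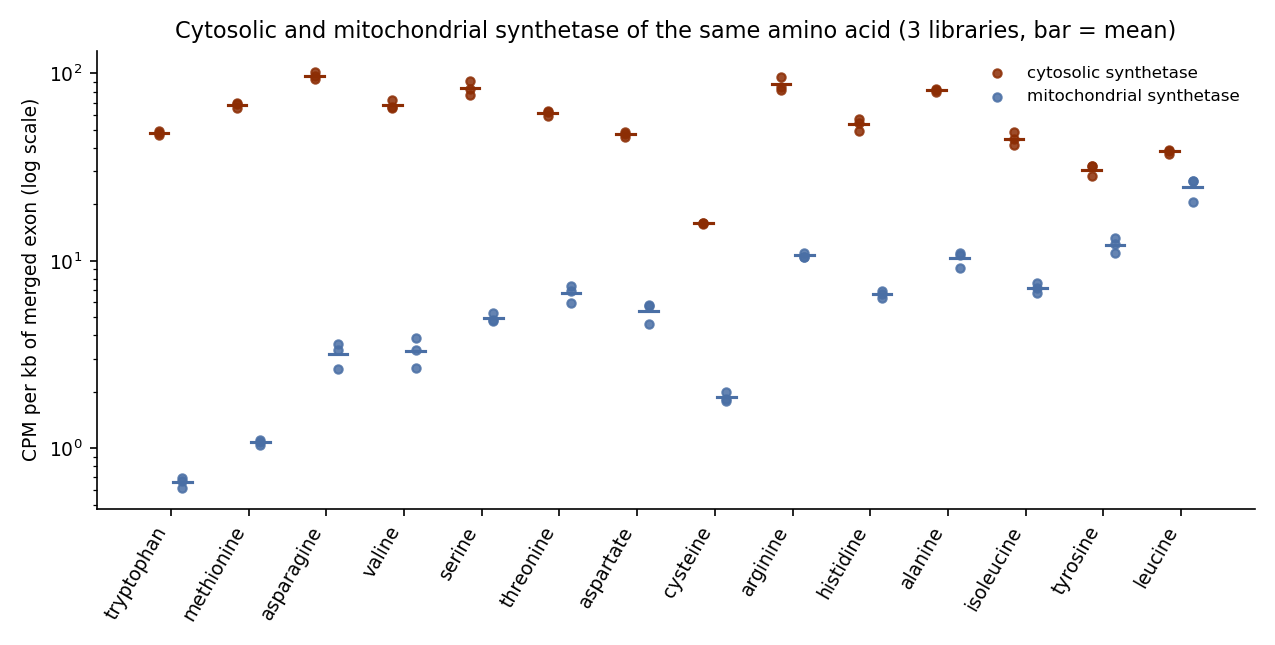
Level in CPM per kb of merged exon (log axis) of the cytosolic (brown) and the mitochondrial (blue) synthetase gene for 14 amino acids, ordered by their ratio. Points are the 3 libraries and bars their mean. The points of both genes are apart for every amino acid, by 73.4-fold for tryptophan and 1.57-fold for leucine.

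Among the response genes, Atf4 itself (chromosome 15, 80255184 to 80257541) was the highest per kb of merged exon. It had 553, 600 and 509 CPM in replicates 1, 2 and 3, or 234, 255 and 216 CPM per kb. Asns, a much used readout of ATF4 activity, was within its spread, at 226, 236 and 224 CPM per kb (log2 ratio of Asns to Atf4 -0.04 ± 0.08). Per kb of the longest transcript Asns was above Atf4, at 310 ± 8.75 and 274 ± 22.5.

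The transporter genes differed widely. Slc7a5, the light chain LAT1 that carries large neutral amino acids, had 714, 636 and 576 CPM in replicates 1, 2 and 3 (173 ± 18.6 CPM per kb). Slc3a2, the heavy chain that both light chains pair with, had 319, 346 and 274 CPM (88.7 ± 10.3 CPM per kb). Slc7a11, the light chain xCT of the cystine-glutamate exchanger, had 73.8, 59.3 and 43.9 CPM. It was 21.3-fold lower per kb than Slc3a2 (log2 -4.09, -4.52 and -4.62), whereas Slc7a5 was 1.95-fold higher than Slc3a2 (log2 1.09, 0.81 and 1.0). With the longest transcript the mean log2 ratios to Slc3a2 were -4.15 ± 0.28 for Slc7a11 and 0.72 ± 0.14 for Slc7a5. At 4.24 ± 1.08 CPM per kb, Slc7a11 lay below the median of detected genes. All 3 were lowest in replicate 3.

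The serine pathway was expressed at every step. Phgdh, its first enzyme, had 283, 295 and 241 CPM, Psat1, the second, had 403, 418 and 402, and Psph, the last, had 102, 126 and 116, in replicates 1, 2 and 3. Per kb Psat1 exceeded Psph 3.64-fold (log2 2.01, 1.76 and 1.82). Phgdh and Psat1 were close: Phgdh was higher per kb of merged exon (log2 0.19 ± 0.13) and lower per kb of the longest transcript (-0.12 ± 0.13). Psph shares 452 nt of exon with Cct6a on the opposite strand, which had 12021 to 13461 counts against 1758 to 1805 for Psph. Whether strand was used in the counting is not stated in the labels, so the level of Psph is uncertain.

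Serine feeds the mitochondrial one-carbon pathway through Shmt2 and Mthfd2, a hydroxymethyltransferase and a dehydrogenase of folate. Shmt2 had 400, 384 and 350 CPM and Mthfd2 232, 247 and 267. Shmt2 was 9.15-fold above its cytosolic paralogue Shmt1 per kb (log2 3.19 ± 0.09), and Mthfd2 was 37.1-fold above its mitochondrial paralogue Mthfd2l (5.22 ± 0.14). Aldh18a1, which starts proline synthesis from glutamate, had 191, 159 and 150 CPM (41.0 ± 5.34 CPM per kb). Pycr1, a reductase that ends that route and is itself a known ATF4 target, had 4.74, 3.52 and 2.40 CPM, and Aldh18a1 was 46.9-fold higher per kb (log2 5.55 ± 0.33).

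The stress effectors lay between Aldh18a1 and Psph per kb of merged exon, apart from Sesn2, which lay below both. Ddit3, which encodes the transcription factor CHOP (chromosome 10, 127290774 to 127296288), had 62.6, 70.7 and 48.2 CPM in replicates 1, 2 and 3. Trib3, a pseudokinase that restrains AKT and ATF4 (chromosome 2, 152337422 to 152344032), had 92.5, 106 and 61.0. Chac1, which breaks down glutathione, had 69.3, 74.9 and 56.4. These genes stood at 35.3 ± 6.64, 40.8 ± 10.9 and 40.8 ± 5.77 CPM per kb, and did not differ among themselves beyond their spread on that scale. Per kb of the longest transcript Ddit3 stood above Chac1, at 62.4 ± 11.7 and 40.8 ± 5.77. Ddit3 and Trib3 lay 6.72-fold and 5.91-fold below Atf4 per kb (log2 -2.75 ± 0.17 and -2.56 ± 0.30). With the longest transcript these log2 ratios were -2.15 ± 0.17 and -2.72 ± 0.30, so that Trib3 lay further below Atf4 than Ddit3 did. Sesn2, the leucine sensor that inhibits mTORC1, was the lowest member, with 14.95, 12.84 and 11.6 CPM (265, 179 and 179 counts). Its relative Sesn1 was 1.5-fold higher per kb.

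In a test of every gene for variation between replicates, 0 of 35 members passed, against 0.643% of the 11821 genes tested (76 genes; edgeR deviance test with trended dispersion, Benjamini-Hochberg adjusted p under 0.05). With dispersions and size factors from DESeq2 the counts were 0 members and 47 genes. At an unadjusted p under 0.05 there were 2 of 35 members, against 5.90% of all genes tested. These were Trib3 (edgeR adjusted p = 0.145) and Slc7a11 (edgeR adjusted p = 0.367), both of which were lowest in replicate 3. The next member was Ddit3 (edgeR adjusted p = 0.916). Over the alternatives the adjusted p of the edgeR test ranged from 0.0548 (without replicate 1) to 1.0 for Trib3 and from 0.343 to 1.0 for Slc7a11. Without replicate 3, 0 of 35 members had an unadjusted p under 0.05.

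The synthetases had the smaller spread of both lists. Their coefficient of variation between libraries had a median of 4.56%, from 0.144% (Cars) to 10.6% (Farsb), and was under 10% in 19 of 20. That of the response genes had a median of 10.7%, from 2.21% (Psat1) to 26.8% (Trib3), and was under 10% in 5 of 15. The median over all detected genes was 9.80%. Those genes had a lower level, with a median of 37.4 CPM against 234 for the synthetases and 240 for the response genes. Spread was not compared at matched level.

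Many of the response genes were lowest in the same library. Replicate 3 was the lowest library for 11 of 15 response genes, against 34.4% of detected genes and 7 of 20 synthetases (TMM-scaled CPM). The median log2 ratio of replicate 3 to the mean of the other libraries was -0.197 for the response genes and 0.020 for the synthetases, against -0.001 for all detected genes. What lay behind this was not tested. Fewer cells with an active response, less RNA of these genes per cell and a technical difference between libraries cannot be told apart in these bulk samples. The largest differences were those of Trib3 (-0.67), Slc7a11 (-0.57), Ddit3 (-0.43), Chac1 (-0.32) and Slc3a2 (-0.25). The response genes that were not lowest there were Asns (-0.01), Psat1 (0.00), Psph (0.06) and Mthfd2 (0.19). No member had passed the test of variation, and 1 library against the others of its group carries no test of a condition.

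**Figure D3:**
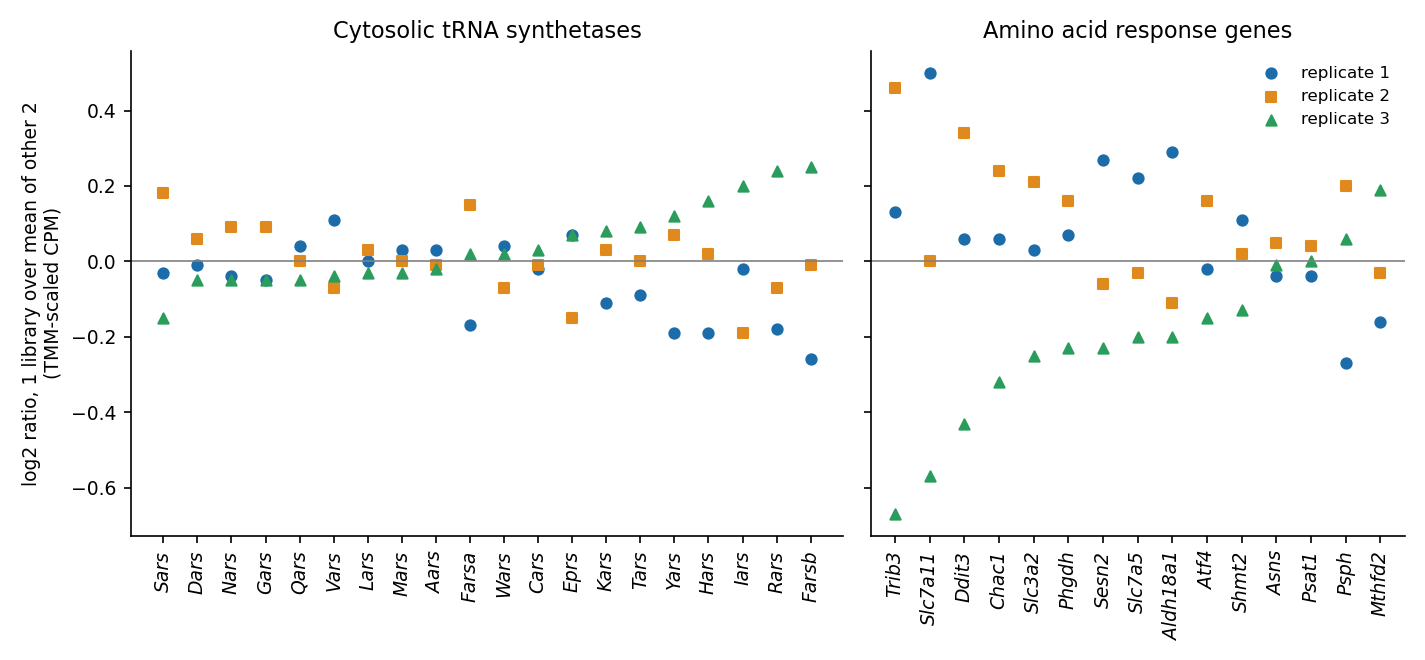
Log2 ratio of each library to the mean of the other 2 (TMM-scaled CPM) for the 20 synthetases on the left and the 15 response genes on the right, ordered by the ratio of replicate 3 (green triangles). The replicate 3 points reach -0.67 for Trib3 among the response genes, while those of the synthetases run from -0.15 (Sars) to 0.25 (Farsb).

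By role, the 4 stress effectors were each lowest in replicate 3 (median log2 -0.378), and all 3 transporter subunits were too (-0.248). The 5 genes of amino acid synthesis had a median of -0.013, with 2 of them lowest in replicate 3 (Phgdh -0.23 and Aldh18a1 -0.20). The 2 one-carbon genes had a median of 0.029 and moved in opposite directions (Shmt2 -0.13 and Mthfd2 0.19). Set against the synthetases of the same library, which needs no scaling between libraries, the summed counts of the stress effectors came to 3.90, 4.24 and 2.89% of those of the synthetases in replicates 1, 2 and 3. The transporter subunits came to 18.1, 16.7 and 14.6%, the synthesis genes to 26.1, 26.4 and 24.8%, and the one-carbon genes to 10.3, 10.1 and 10.1%. The groups were formed with the values in view and carry no test. The stress effectors are short, with a median of 1919 nt of merged exon against 4582 nt for detected genes, and the libraries differ by a trend on exon length (slopes of 0.094, -0.12 and 0.024 log2 per doubling of length in replicates 1, 2 and 3). After removal of that trend their median in replicate 3 was -0.316, and that of the 15 response genes -0.164.

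**Figure D4:**
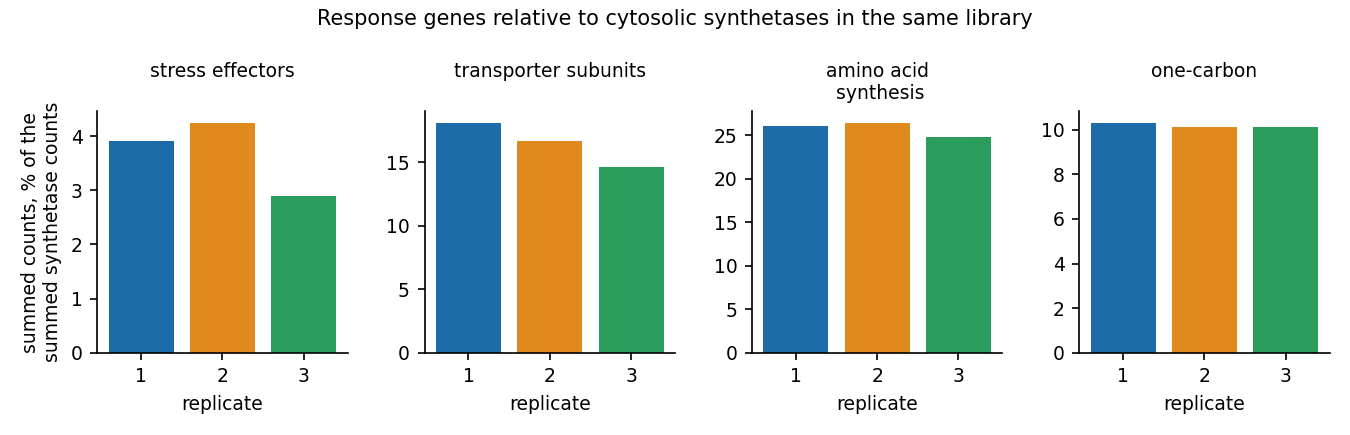
Summed counts of 4 groups of response genes as a percentage of the summed counts of the 20 synthetases in the same library, by replicate. The stress effectors stand at 2.89% in replicate 3, against 3.90 and 4.24% in replicates 1 and 2, and the one-carbon genes at 10.1 to 10.3% in all 3.

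Upstream of Atf4, the genes of all 4 eIF2 kinases were detected. Eif2ak1, the haem-regulated kinase, was at 64.5 ± 7.70 CPM, Eif2ak3, the ER stress kinase PERK, at 44.5 ± 6.84, Eif2ak2, the double-stranded RNA kinase, at 42.5 ± 3.08 and Eif2ak4, the amino acid sensor GCN2, at 38.2 ± 2.84. Per kb the order was Eif2ak1 (11.4), Eif2ak2 (8.30), Eif2ak3 (7.39) and Eif2ak4 (5.12). Of the phosphatase subunits that undo their action, the constitutive Ppp1r15b was at 30.4 ± 4.81 CPM per kb and the stress-inducible Ppp1r15a at 14.1 ± 1.62. The subunits of eIF2 and of its exchange factor eIF2B were more abundant (8 of 8 detected, median 45.5 ± 2.63 CPM per kb). Eif2s3x (160 ± 7.16), Eif2s2 (77.2 ± 5.88) and Eif2s1 (61.0 ± 4.39) led, and Eif2b4 (21.0), Eif2b1 (19.4) and Eif2b3 (7.30) were last. All 8 were lowest in replicate 1, against 33.2% of detected genes. In that library shorter genes tended to be lower (slope of 0.094 log2 per doubling of exon length), and this trend was not removed here. The list holds genes shorter and longer than the median of 4582 nt for detected genes, from Eif2b2 (1885 nt) to Eif2s2 (6755 nt).

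Of 12 further regulators and targets linked to ATF4, 10 were detected, and 7 of these were lowest in replicate 3 (median log2 -0.255). Ddit4, an mTORC1 inhibitor also induced by hypoxia, was the one gene of the lists of the pathway that passed the test of variation. Over all 11821 genes tested 76 passed (0.643%), so a single call over all these lists is not read as a property of them. With tagwise dispersion 0 of the 11821 genes passed (edgeR, 223 with an unadjusted p under 0.05). Ddit4 had 213, 184 and 101 CPM in replicates 1, 2 and 3 (edgeR adjusted p = 0.00101, log2 -0.95 in replicate 3). Per kb Ddit4 (94.5 ± 33.2), Eif4ebp1 (53.1 ± 8.68) and Atf5 (48.6 ± 5.25) were the highest. Stc2 (2.74 ± 0.29) was the lowest of the detected genes, and Fgf21 and Vldlr were not detected, with 0 to 1 counts per library. Atf5 and Nupr1 went the other way in replicate 3, with log2 ratios of 0.26 and 0.42. Of the other branches of the ER stress response, 12 of 12 genes were detected, 4 were lowest in replicate 3, and the median log2 ratio was -0.055. Their highest members were Hsp90b1 (323 ± 17.8 CPM per kb), Hspa5 (288 ± 10.6) and Pdia4 (74.2 ± 3.71), and their lowest Edem1 (8.88), Sel1l (7.79) and Ern1 (2.67). Among further enzymes of amino acid metabolism, replicate 3 was the lowest library for 8 of 13 detected genes (median log2 -0.155). It was so for 9 of 17 mitochondrial synthetases (-0.062), 3 of 11 one-carbon enzymes (0.005) and 2 of 8 further transporters (0.110). The eIF2 kinases and phosphatase subunits had 2 of 6 (-0.119), and the eIF2 and eIF2B genes 0 of 8 (0.126).

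**Figure D5:**
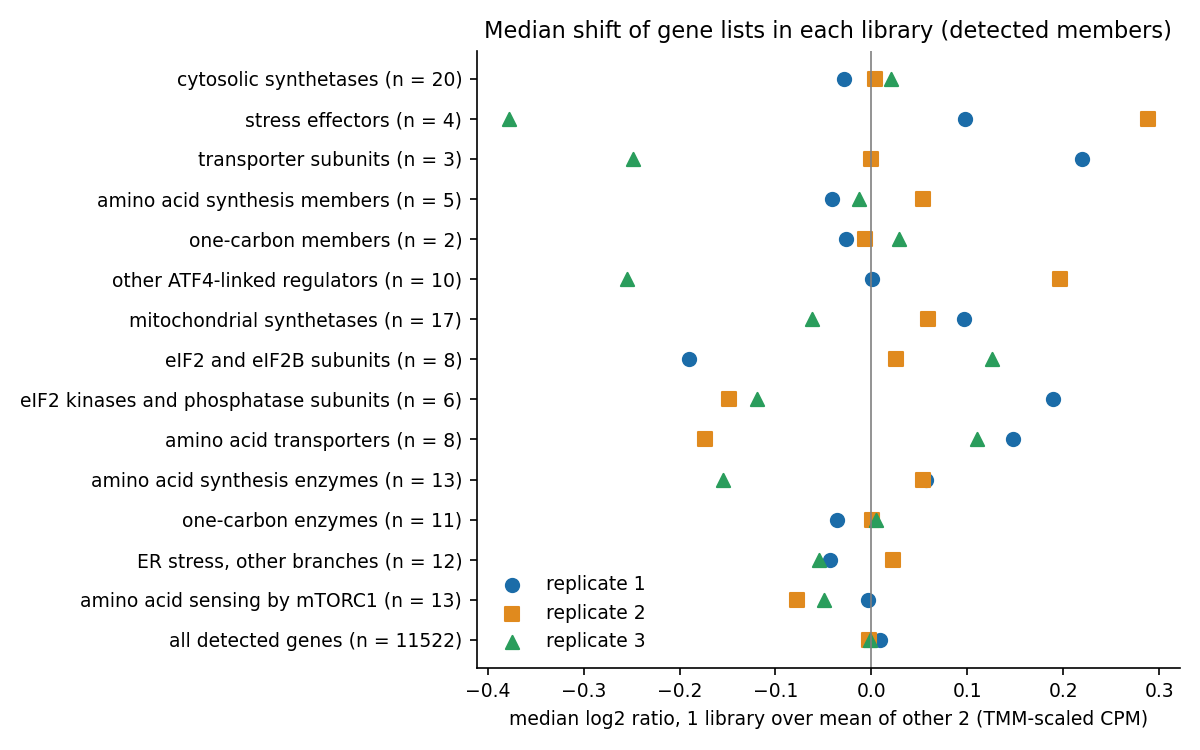
Median log2 ratio of each library to the mean of the other 2 (TMM-scaled CPM) over the detected genes of each list, with the response genes also split by role. Replicate 3 stands at -0.378 for the stress effectors, -0.255 for the other ATF4-linked regulators and -0.248 for the transporter subunits. It stands at -0.155 for the amino acid synthesis enzymes, 0.020 for the synthetases and 0.110 for the amino acid transporters.

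Other genes of amino acid supply were also present. Among 10 further transporters 8 were detected. Slc1a5 and Slc38a2, carriers of glutamine and other neutral amino acids, were at 42.8 ± 4.55 and 42.6 ± 3.43 CPM per kb and Slc38a1 at 26.7 ± 2.02. Per kb of the longest transcript Slc38a2 was not above Slc38a1, at 0.973-fold. Slc43a1 was at 0.733, and Slc7a3 and Slc1a1 were not detected. Among 14 further enzymes of amino acid metabolism 13 were detected, led by the aspartate aminotransferase Got2 (162 ± 1.10 CPM per kb), the branched-chain aminotransferase Bcat1 (52.8 ± 3.43) and Got1 (47.3 ± 3.71). Cbs (1.52) and Pycr1 (0.902) were low. In the one-carbon list 11 of 12 were detected, with Ahcy (94.9 ± 4.93), Mat2a (77.2 ± 5.89) and Mthfd1l (33.0 ± 1.72) first, Mtr (2.18) and Mthfd2l (1.92) low, and Aldh1l1 not detected. Genes through which mTORC1 senses amino acids were low, with a median of 4.58 ± 0.18 CPM per kb over the 13 of 14 found in the table. Rraga (32.0 ± 0.79), Rragc (13.7 ± 0.84) and Mtor (10.2 ± 1.27) were the highest of them, and Slc38a9 (2.43), Gatsl2 (2.36, also named Castor2) and Sesn3 (1.55) the lowest.

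Some members share sequence with a neighbour. In the mm10 annotation 8 of 35 members share exon bases with another gene of the table, 7 of them on the opposite strand. Mars and Ddit3 are convergent neighbours whose ends overlap by 68 nt, and Hars and Hars2 share 195 nt. Aars shares 1326 nt on its own strand with Exosc6, which had 388 to 590 counts against 10556 to 13665 for Aars. Shmt2 shares 32 nt with Ndufa4l2 (204, 162 and 35 counts) and Yars 30 nt with C77080. How the authors' counting divided such reads is not given in the sources used here.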

How the data were processed

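RNA was extracted with ISOGEN and poly(A) libraries were prepared with a directional kit, per the labels' protocols. The submitters' processing notes name STAR and mm10. The tool that counted reads and whether it used strand: not given in the sources used here. The authors deposited expected counts, 1 row per gene symbol, and these were rounded to whole numbers here; 0 members had a fractional count at a tolerance of 0.01. The 27 rows named by dates (0.281 to 0.306% of counts) were left out. CPM used the totals of 24384 named genes. A count of 0 allows 3 counts, or 0.169 to 0.215 CPM.

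Exon lengths came from GENCODE M21 (mm10), matched for 98.5% of genes; promoter sequences and older symbols came from RefSeq (GRCm38.p6). Each gene was tested for spread beyond the fitted trend with edgeR 4.0.16 (intercept-only fit, TMM, filterByExpr, trended dispersion, chi-square with 2 degrees of freedom, adjusted over all genes tested), after a test on simulated data. DESeq2 1.42.0, R 4.3.3, Python 3.11.15 and pandas 2.3.3 were also used. The shift of a library is log2 of a gene's TMM-scaled level there over its average in the remaining libraries.

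The members and lists were chosen with earlier results of these data known. Genes named are all response genes, the 5 highest and 5 lowest synthetases per kb, the genes of fixed pairs, the 3 members with the smallest p, and the 3 highest and lowest of each other list; the remaining genes named were chosen after their values were seen. Alternatives covered detection minimum, scaling, low-count filter, dispersion, gene length, pseudocount, summary and each replicate left out. A few genes and sequences that these rules would name are not reported here.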

Additional observations from a re-analysis of the deposited data

How the results depend on the processing

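All 35 members were detected, and 0 passed the test of variation between replicates, under every alternative run. The count of all genes that passed, 76, was 116 with common, 0 with tagwise and 47 with DESeq2 dispersions and size factors. It was 36 to 52 with 1 replicate left out. The median CPM per kb, 52.1 for the synthetases and 71.3 for the response genes, was 81.8 and 109 per kb of the longest transcript, and 53.0 for the response genes as a mean of logs. Without the 20 highest genes in the total, the shares of counts were 1.09% (members), 0.659% (synthetases) and 0.428% (response genes). The synthetase shifts are near 0 and changed sign under some alternatives. In replicate 1 (-0.029) the shift was -0.083 without the length trend and -0.055 to 0.001 with a replicate left out, an alternative added after seeing the data. In replicate 2 (0.004) it was 0.069 and -0.022 to 0.055, and in replicate 3 (0.020) it was -0.011 with library totals. The ratio of Phgdh to Psat1 (0.19) turned to -0.12 per kb of the longest transcript. The replicate 3 shift of the response genes ran from -0.229 to -0.115 and that of the stress effectors, whose alternatives were also added after seeing the data, from -0.448 to -0.316. No paired analysis was possible because there was 1 group. Depth limits Sesn2 most, with 179 to 265 counts.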
